A study of Mus musculus with 8 samples.

Results

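Protease inhibitor genes were followed in RNA from mouse kidney whose cell type is given as IMCD, the inner medullary collecting duct. Most encode secreted or membrane proteins, while Serpina3g and Serpinb6a encode intracellular serpins. The 10 genes were Spint1, Spint2, Ambp, Spink8, Slpi, Wfdc2, Cst3, Serpine2, Serpina3g and Serpinb6a, taken by symbol from the 77981 genes of the deposited table. They were listed with the genotype differences of these libraries already known, and Spink8 and Slpi were among the largest differences of the whole table. Their differences between genotypes are therefore given as a description and were not tested. The libraries came from 4 AVP-flox;Cre and 4 AVP-flox samples. In AVP-flox samples loxP sites flank the vasopressin gene Avp, with 1 site in the first intron and the other beyond the 3' end, and AVP-flox;Cre samples carry the Cre recombinase as well. The groups are also called with Cre and without Cre here. All 8 have the label tamoxifen, which activates inducible forms of Cre. The labels do not name the promoter that drives Cre, there is no group with Cre and an unfloxed Avp, and whether replicates are separate animals is not stated, so the spread between samples may be partly technical.

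Protease inhibitors bind the active site of a protease, and families differ in the fold that reaches it. Kunitz, Kazal and WAP (whey acidic protein) inhibitors are small domains held together by disulfide bonds, cystatins fill the cleft of papain-like cysteine proteases, and serpins trap a serine protease by a change of shape. In the collecting duct, trypsin-like proteases at the cell surface cut the epithelial sodium channel and other surface proteins, and the Kunitz inhibitors of the same membranes hold these proteases in check.

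The data are TPM values, a measure of transcript abundance per length and per library total, so levels can be compared roughly between genes. Biases of amplification and library making that differ between genes were not assessed, and orders, shares and ratios of levels between genes carry that limit. The depth of the libraries is unknown. The collecting duct label was checked with 15 marker genes, all of which were expressed, with a summed level of 15741 to 18225 TPM with Cre and 22885 to 27463 TPM without Cre. Aqp2 made up much of that sum, at 6305 TPM with Cre and 15995 TPM without Cre on average. Of the 15, only the aquaporins Aqp2, Aqp3 and Aqp4 passed the limma threshold as lower with Cre, while 7, among them Cdh16, Slc14a2 and Hoxb7, passed as higher and 5 did not pass. Over all 19043 tested genes, 13.1% passed as higher and 14.2% as lower, the background for this and the other marker counts. Markers of other cells were present at lower levels. The sum of 10 papillary surface and urothelium markers ran from 5484 to 6285 TPM with Cre and from 2150 to 3133 TPM without Cre. The sum of 11 fibroblast, pericyte and smooth muscle markers ran from 297 to 369 TPM with Cre and from 145 to 199 TPM without Cre. Pdgfra and Col1a2 made up most of it. Of 10 tested, 4 passed as higher (Pdgfra, Col1a2, Acta2 and Tagln), while the others, among them Col1a1 and Dcn, overlapped and did not pass. Proximal tubule markers varied most within a group, from 156 to 388 TPM with Cre and from 80.0 to 973 TPM without Cre. Avp itself, which is made in the hypothalamus, was at 0 to 0.27 TPM with Cre and 0 to 0.24 TPM without Cre, so kidney RNA does not check its deletion. Library AVP-flox;Cre 2 stood apart with 33576 genes above 0 TPM, where the other 7 libraries had 50951 to 58232. In a mixed tissue, more cells of a type and more RNA per cell cannot be told apart.

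Spink8 and Slpi stood furthest from their AVP-flox level. Parts of their coding sequences are shown because these members had the largest log2 differences of the list, and because the cysteine codons mark the framework of each inhibitor. Sequences are from the mouse annotation GENCODE M21 (GRCm38), matched by gene identifier, with in-frame cysteine codons in capitals. Spink8 is shown from codon 44 to codon 96 and Slpi from codon 36 to codon 127. Spink8 lies on the plus strand of chromosome 9 and Slpi on the minus strand of chromosome 2.
Spink8: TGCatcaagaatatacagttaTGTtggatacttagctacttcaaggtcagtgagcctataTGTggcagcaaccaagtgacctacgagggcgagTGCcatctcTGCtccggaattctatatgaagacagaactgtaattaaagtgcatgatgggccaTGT
Slpi: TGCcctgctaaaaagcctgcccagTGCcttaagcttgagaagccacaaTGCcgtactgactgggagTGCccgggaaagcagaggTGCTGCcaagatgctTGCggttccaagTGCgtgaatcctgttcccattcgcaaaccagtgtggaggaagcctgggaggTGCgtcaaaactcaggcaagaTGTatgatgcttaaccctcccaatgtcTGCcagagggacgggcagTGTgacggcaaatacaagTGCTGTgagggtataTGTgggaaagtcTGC
The Spink8 reading frame has 105 codons before the stop and 6 cysteine codons, all between codons 44 and 96, the number of cysteines of a Kazal domain. The Slpi frame has 131 codons and 17 cysteine codons, from codon 4 to codon 127, and the protein is known to hold a pair of WAP domains.

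**Figure D1:**
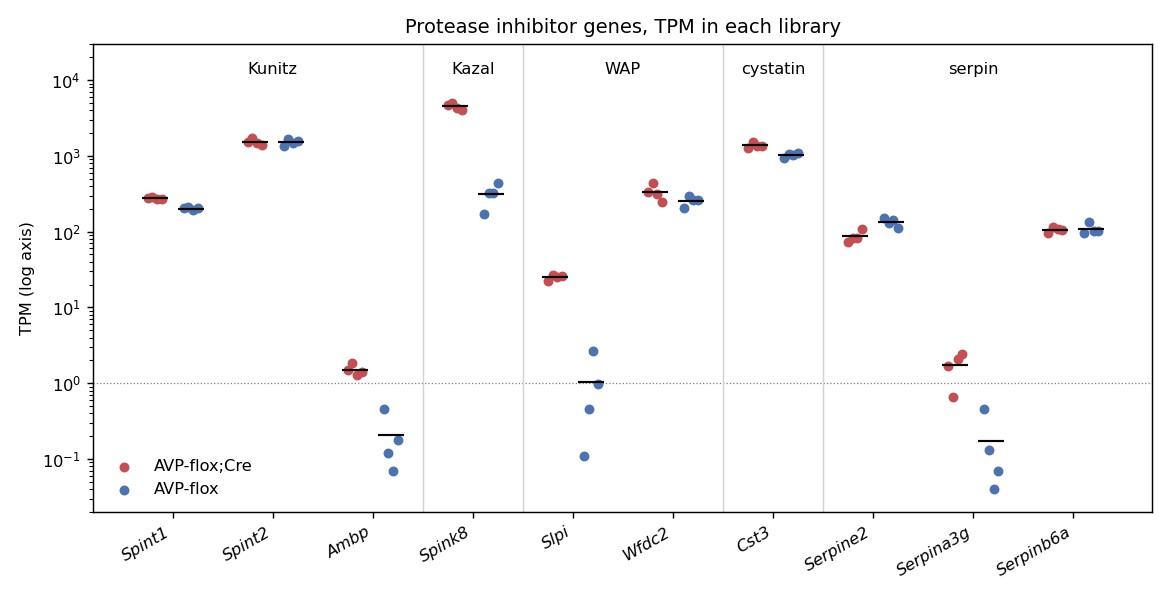
TPM of the 10 inhibitor genes on a log axis, grouped by inhibitor family, with AVP-flox;Cre in red, AVP-flox in blue, 1 point per library, a bar at each mean and a dotted line at 1 TPM. Spink8, Slpi, Spint1, Cst3, Ambp and Serpina3g were higher in all 4 libraries with Cre than in any of the 4 without it, Serpine2 was lower, and Spint2, Wfdc2 and Serpinb6a overlapped.

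Groups did not overlap for 7 of the 10 genes, 6 of them higher and 1 lower with Cre. Over all 19043 genes whose mean reached 1 TPM, the groups did not overlap for 29.5%, with 14.7% higher and 14.9% lower. Since the list was made with these differences known, nothing is read from that contrast of shares. The count of higher genes was also 6 without AVP-flox;Cre 2, and it was 7 without AVP-flox;Cre 4, when Wfdc2 no longer overlapped. Of the 10 genes, 8 reached a mean of 1 TPM over the 8 libraries, while Ambp and Serpina3g did not, and no model was fitted for those. Both are counted among the 6 higher genes but lie outside the 19043, so the count and the shares cover different sets of genes.

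The Kazal member was the most abundant inhibitor of the list with Cre. Spink8, a member of the serine protease inhibitor Kazal family, had 4682, 4955, 4342 and 4002 TPM in libraries AVP-flox;Cre 1 to 4 and 169, 322, 325 and 442 TPM in AVP-flox 1 to 4. The lowest AVP-flox;Cre library stood far above the highest AVP-flox library. The means were 4495 ± 414 TPM with Cre and 315 ± 112 TPM without Cre (SD, n = 4 each), a ratio of 14.3 and a log2 difference of 3.91 (SE 0.24). The spread around the mean was narrow with Cre, with a coefficient of variation of 9.20%, and wider without Cre, at 35.6%. Spink8 ranked from 10 to 13 among all genes by TPM in the AVP-flox;Cre libraries, and from 317 to 1085 in the AVP-flox libraries. AVP-flox 1, which had the lowest Spink8 level, also had the highest sum of proximal tubule markers, at 973 TPM, and was the only AVP-flox library with the male pattern of Xist and Y-linked genes. With Cre, libraries 1 and 2 had the male pattern and libraries 3 and 4 the female pattern, and Spink8 was higher in 1 and 2. AVP-flox 3, with 617 TPM of proximal tubule markers, had nearly the same Spink8 level as AVP-flox 2, with 117 TPM. The part of these markers or of the sex pattern in the Spink8 levels was not tested. With the sex pattern as a covariate the log2 difference was 3.99.

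Of the WAP members, Slpi was nearly absent without Cre and Wfdc2 was well expressed in both genotypes. Slpi, the secretory leukocyte protease inhibitor of mucosal surfaces, which blocks neutrophil elastase and cathepsin G, had 22.6, 27.0, 25.0 and 26.1 TPM in libraries AVP-flox;Cre 1 to 4 and 0.11, 0.45, 2.63 and 0.97 TPM in AVP-flox 1 to 4. The groups were far apart, the libraries with Cre lay close to each other, and those without Cre were low and scattered. The ratio of means was 24.2, at 25.2 ± 1.9 TPM with Cre against 1.04 ± 1.12 TPM without Cre (SD, n = 4 each). On the log2(TPM + 1) scale the difference was 3.83 (SE 0.31), with values of 3.58 to 4.15 when single libraries were left out. It depends on the added constant, with 5.05 at a pseudocount of 0.1 and 2.34 at 5. Wfdc2, also called HE4, a secreted WAP protein of duct epithelia, had 329, 435, 317 and 246 TPM in libraries AVP-flox;Cre 1 to 4 and 204, 297, 261 and 265 TPM in AVP-flox 1 to 4. These groups overlapped, since AVP-flox;Cre 4 lay below 3 of the AVP-flox libraries, and the log2 difference was 0.35 (SE 0.17).

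Urothelial and papillary surface cells, injured tubule and leukocytes are known sources of Slpi. The sum of the papillary and urothelial markers given above was higher in all 4 libraries with Cre than in any of the 4 without it, and Psca made up most of it (4836 TPM with Cre and 2059 TPM without Cre on average). Of the 10 markers 7 passed the limma threshold as higher, Trp63 passed as lower, and Upk2 and Krt19 overlapped and did not pass. Their part in the Slpi and Spink8 levels was not tested. Of 7 neutrophil markers, Ly6g, Elane and Camp stayed under 1 TPM in all libraries, and the summed level was 1.46 to 7.14 TPM with Cre and 3.29 to 4.92 TPM without Cre.

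Of the Kunitz members of the epithelial membrane, Spint1 was higher with Cre and Spint2 overlapped. Spint1 encodes HAI-1, the membrane inhibitor of matriptase and of the activator of hepatocyte growth factor. Libraries AVP-flox;Cre 1 to 4 had 281, 289, 272 and 266 TPM, and AVP-flox 1 to 4 had 203, 211, 192 and 202 TPM. Both groups were tight and apart, with coefficients of variation of 3.66% with Cre and 4.03% without Cre, a ratio of 1.37 and a log2 difference of 0.45 (SE 0.06). Spint2 encodes HAI-2, a related inhibitor that acts on matriptase, prostasin and other surface proteases. Libraries AVP-flox;Cre 1 to 4 had 1534, 1736, 1483 and 1376 TPM, and AVP-flox 1 to 4 had 1358, 1668, 1467 and 1561 TPM. The groups lay over each other, with a log2 difference of 0.02 (SE 0.09) whose sign changed between alternatives (-0.05 to 0.07). The ratio of Spint2 to Spint1 in each library ran from 5.18 to 6.01 with Cre and from 6.70 to 7.89 without Cre.

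Ambp encodes a precursor that is cut into the lipocalin alpha-1-microglobulin and the Kunitz inhibitor bikunin, and liver is its main source. Libraries AVP-flox;Cre 1 to 4 had 1.49, 1.83, 1.28 and 1.40 TPM, and AVP-flox 1 to 4 had 0.46, 0.12, 0.07 and 0.18 TPM. All 8 values are low. The groups did not overlap, and the means of 1.5 ± 0.24 TPM with Cre and 0.21 ± 0.17 TPM without Cre gave a ratio of 7.23 (SD, n = 4 each). The proximal tubule marker sums were 193, 272, 388 and 156 TPM in AVP-flox;Cre 1 to 4 and 973, 117, 617 and 80.0 TPM in AVP-flox 1 to 4, and their part in the Ambp level was not tested.

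Cst3 encodes cystatin C, a secreted inhibitor of cysteine cathepsins that is made by most cells and used in plasma as a marker of glomerular filtration. Libraries AVP-flox;Cre 1 to 4 had 1282, 1533, 1353 and 1342 TPM, and AVP-flox 1 to 4 had 951, 1053, 1043 and 1086 TPM. The groups did not overlap, and the log2 difference was 0.41 (SE 0.07), a ratio of means of 1.33. Macrophages are rich in this transcript, and the summed level of 14 leukocyte markers was 337 to 594 TPM with Cre and 223 to 515 TPM without Cre. Cd74 and Lyz2, which overlapped, made up most of that sum. Of 11 markers tested, Csf1r, a receptor of macrophages, passed as higher, at 21.9 to 34.1 TPM with Cre and 7.39 to 16.3 TPM without Cre (log2 fold change 1.10, SE 0.22, adjusted p = 0.0049), and 10 did not pass. Itgam, Cx3cr1 and Mrc1 stayed under 1 TPM in all libraries. The part of these cells in the Cst3 level was not tested.

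Serpine2 was the lower member among the serpins. It encodes protease nexin-1, a secreted serpin that binds thrombin, urokinase and tissue plasminogen activator. Libraries AVP-flox;Cre 1 to 4 had 73.8, 81.9, 83.0 and 108 TPM, and AVP-flox 1 to 4 had 150, 132, 141 and 112 TPM. The gap between the groups was small, because AVP-flox;Cre 4 and AVP-flox 4 nearly met. With Cre the mean was 1.54-fold lower, 86.8 ± 15 TPM against 134 ± 16 TPM without Cre (SD, n = 4 each), with a log2 difference of -0.63 (SE 0.13).

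Serpina3g, an intracellular serpin of mouse known from lymphocytes and interferon-treated cells, had 1.70, 0.66, 2.09 and 2.46 TPM in libraries AVP-flox;Cre 1 to 4 and 0.46, 0.13, 0.04 and 0.07 TPM in AVP-flox 1 to 4. The groups did not overlap, although AVP-flox;Cre 2 and AVP-flox 1 were close. The ratio of means was 9.87. Serpina3g belongs to a cluster of near-identical genes, between which RSEM has to divide reads, so its level is uncertain. Its relative Serpina3f was listed at 0 to 0.58 TPM with Cre and at 0.05 to 0.35 TPM without Cre, and Serpina3n, which responds to acute inflammation, was at 0.28 to 0.59 TPM with Cre and 0.66 to 2.28 TPM without Cre. Serpina3n thus lay on the other side, with its AVP-flox;Cre libraries below its AVP-flox libraries, and it missed the threshold (limma log2 fold change -0.81, SE 0.28, adjusted p = 0.0591). T and B lymphocyte markers summed to 6.18 to 10.7 TPM with Cre and 4.21 to 11.5 TPM without Cre, and Cd3d, Cd4, Cd8a and Ms4a1 stayed under 1 TPM in all libraries.

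Serpinb6a, a cytosolic serpin that inhibits trypsin-like proteases and cathepsin G, had 95.0, 115, 110 and 107 TPM in libraries AVP-flox;Cre 1 to 4 and 95.9, 133, 103 and 101 TPM in AVP-flox 1 to 4. The groups overlapped over nearly their whole range, and the log2 difference was -0.01 (SE 0.11), with a sign that changed between alternatives (-0.07 to 0.09). Its close relative Serpinb6b was at 20.2 ± 4.8 TPM with Cre and 19.4 ± 4.5 TPM without Cre (SD, n = 4 each).

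**Figure D2:**
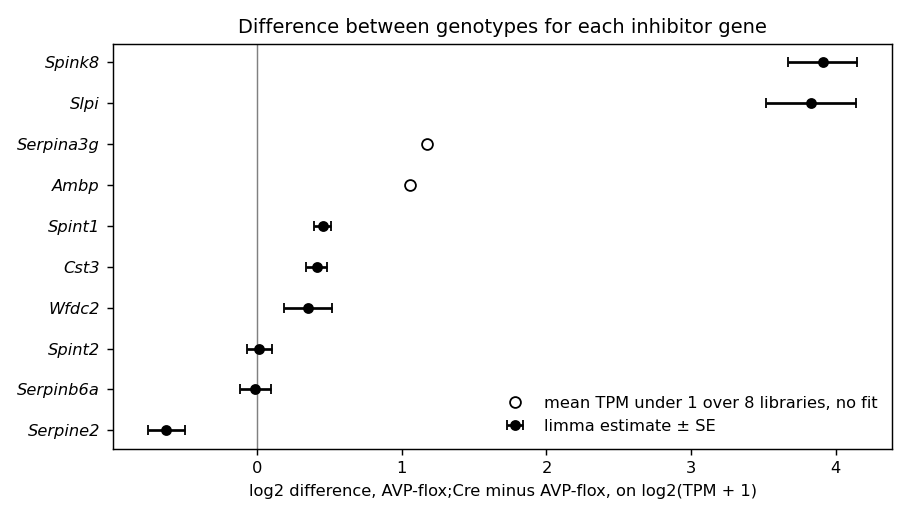
Log2 difference of each inhibitor gene, AVP-flox;Cre minus AVP-flox on the log2(TPM + 1) scale. Filled points are limma estimates with their standard error and open points are plain differences of means for the 2 genes under 1 TPM. Spink8 (3.91) and Slpi (3.83) lie far to the right, 3 genes lie between 0.35 and 0.45, Spint2 and Serpinb6a lie near 0, and Serpine2 lies at -0.63.

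The order of levels differed between the genotypes at the top, where Spink8 stood, and between neighbours whose ranges overlapped lower down. In AVP-flox;Cre, Spink8 came first, with no overlap with any other member. Spint2 and Cst3 followed with overlapping ranges, although Spint2 was the higher in all 4 libraries. Wfdc2 and Spint1 came next, and their ranges overlapped. Serpinb6a and Serpine2 overlapped too, Slpi stood apart below them, and Serpina3g and Ambp were the lowest and overlapped. In AVP-flox, Spint2 came first and Cst3 second, with ranges that did not overlap, and Spink8 (315 TPM), Wfdc2 (257 TPM) and Spint1 (202 TPM) followed, each overlapping its neighbour in the order. Serpine2 and Serpinb6a overlapped below them. Slpi, Ambp and Serpina3g were the lowest, each overlapping the next.

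Summed over the 10 genes, the inhibitors took 0.824 ± 0.071% of all TPM with Cre and 0.356 ± 0.031% without Cre (SD, n = 4 each). Spink8 made up 53.5 to 56.4% of the sum in AVP-flox;Cre libraries and 5.40 to 11.7% in AVP-flox libraries. Without Spink8 the sum was 3741 ± 328 TPM with Cre and 3249 ± 224 TPM without Cre (SD, n = 4 each), and the library ranges overlapped by a narrow margin, from 3475 to 4220 TPM with Cre and from 2963 to 3495 TPM without Cre.

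**Figure D3:**
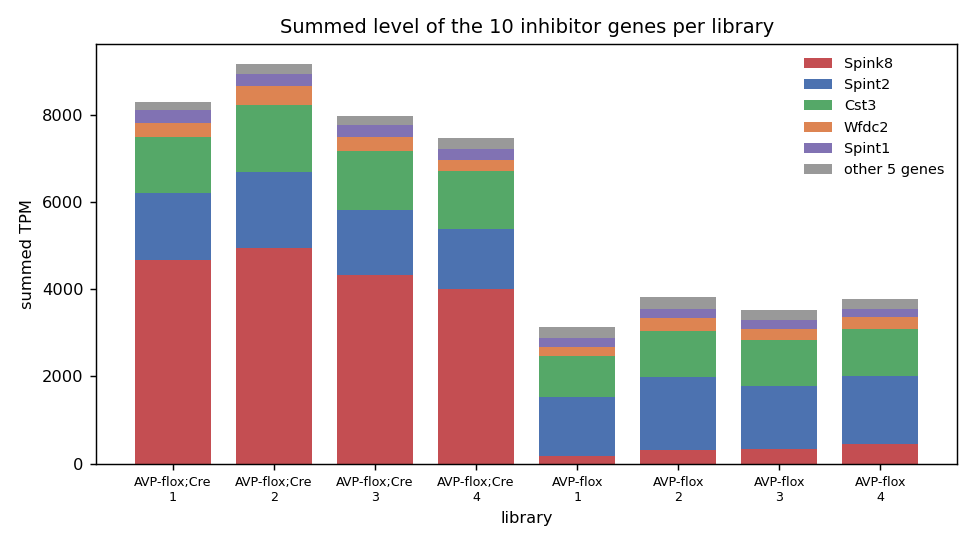
Summed TPM of the 10 inhibitor genes in each library, AVP-flox;Cre on the left, with the contribution of each gene stacked. The AVP-flox;Cre bars reach 7477 to 9175 TPM and the AVP-flox bars 3132 to 3817 TPM, and the Spink8 segment is the part that differs most.

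The start regions of the members were searched for short motifs in the RefSeq promoter table (GRCm38.p6), which gave a window for 9 of the 10 genes, Spink8 being the gene without one. The windows were the 250 bases before the start. The search covered TATAAA, the AP-1 motif TGANTCA, the CRE motif TGACGTCA, the C/EBP motif TTGCNNAA and the GAS motif TTCNNNGAA, each on both strands and counted whether or not it overlapped another. The windows of Slpi and Serpina3g are shown because their levels did not overlap between genotypes and each held a match. Matches are in capitals.
Slpi, chr2:164356508-164356757, minus strand: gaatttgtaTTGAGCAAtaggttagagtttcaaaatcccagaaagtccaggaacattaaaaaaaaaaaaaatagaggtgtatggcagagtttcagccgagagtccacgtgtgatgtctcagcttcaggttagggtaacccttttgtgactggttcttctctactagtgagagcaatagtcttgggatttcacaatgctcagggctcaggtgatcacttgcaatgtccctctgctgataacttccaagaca
Serpina3g, chr12:104235897-104236146, plus strand: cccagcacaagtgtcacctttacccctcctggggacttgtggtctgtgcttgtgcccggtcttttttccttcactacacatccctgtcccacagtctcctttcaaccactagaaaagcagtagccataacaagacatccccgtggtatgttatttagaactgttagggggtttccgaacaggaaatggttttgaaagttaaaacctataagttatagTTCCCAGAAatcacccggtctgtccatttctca
The Slpi window holds a C/EBP match, as its reverse complement, at bases -241 to -234 from the start, and 9.56% of the 32851 promoter windows of the table hold that motif. The Serpina3g window holds a GAS match at bases -33 to -25, a motif that 7.02% of windows hold. Among the 9 members with a window, the GAS motif occurred in 2 (Serpina3g and Serpinb6a) and the C/EBP motif in 1 (Slpi). No member window held TATAAA, AP-1 or CRE letters, which 12.4%, 6.75% and 1.55% of all windows hold. A match of letters is not a binding site, and its absence from these windows says nothing about the factor.

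Genes whose levels moved over the 8 libraries most like a member were picked by the mean absolute difference of log2 deviations from the AVP-flox mean, among 9840 genes whose mean reached 10 TPM. For Spink8 the nearest were Slc10a4-ps (0.17 on the log2 scale), Lgi3 (0.21) and Ifi27l2a (0.21), where the median gene lay at 2.19. For Slpi they were Slc10a4-ps (0.28), Lgi3 (0.33) and Igfbp2 (0.36), so the first 2 genes were shared with Spink8. This distance is set largely by the size of the genotype difference, which was alike for Spink8 (3.91) and Slpi (3.83). Genes with a like log2 fold change, such as Slc10a4-ps (3.92) and Lgi3 (3.99), therefore lie near both. Nothing further is read from the sharing. Slc10a4-ps stood at 68.9 to 74.6 TPM with Cre and 2.27 to 4.91 TPM without Cre, and Lgi3, which encodes a secreted leucine-rich repeat protein, at 25.8 to 34.5 TPM with Cre and 0.65 to 1.06 TPM without Cre.

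Genes next to the strongly different members were compared, using the gene order of RefSeq GRCm38.p6. Nme6, a nucleoside diphosphate kinase family gene that follows Spink8, rose to 105 ± 6 TPM with Cre, against 59.1 ± 3.1 TPM without Cre (SD, n = 4 each, log2 fold change 0.82, SE 0.07, adjusted p = 6.04e-05). Fbxw27, the nearest gene on the other side of Spink8 that was tested, was at 0.94 to 3.33 TPM with Cre and 0.40 to 0.82 TPM without Cre and rose by 1.02 (SE 0.29, adjusted p = 0.0247), a call that ended in 7 of 19 alternatives (adjusted p from 0.00362 to 0.0732). Kif12, a kinesin gene beside Ambp, rose by 0.43 (SE 0.12, adjusted p = 0.0293), a call that ended in 7 of 20 alternatives (adjusted p from 0.0076 to 0.122). Zfp618, on the other side of Ambp, did not pass (0.08, adjusted p = 0.729). Of the next genes outward, Rgs3, a regulator of G protein signalling, rose by 0.48 (SE 0.09, adjusted p = 0.004), which ended when AVP-flox 2, AVP-flox;Cre 2 and AVP-flox;Cre 4 were left out (adjusted p = 0.0601, range 0.00289 to 0.0601), and Col27a1 did not pass (0.43, adjusted p = 0.1, range 0.0383 to 0.393), passing only without AVP-flox 3. The nearest neighbours of Slpi and Serpina3g had a mean under 1 TPM and were not tested.

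Protease families that include targets of these inhibitors were examined in the same fit across all genes. The lists hold whole families, so a listed gene need not be a target of any of the 10 members. In that fit 27.3% of genes passed the threshold of an adjusted p under 0.05. Of all genes, 13.1% were higher and 14.2% lower with Cre, and the median log2 fold change was -0.01. Of 62 membrane and secreted trypsin-like serine proteases, 22 reached a mean of 1 TPM. Of these 13 rose and 2 fell, while 7 did not pass, and the median log2 fold change was 0.57. When AVP-flox 2, AVP-flox;Cre 2 and AVP-flox;Cre 4 were left out together, 8 rose. Fewer libraries remain in that setting, and calls over all genes fell from 2491 to 1378 higher and from 2713 to 1182 lower. A call that ends there is therefore not tied to those libraries. Prss8 encodes prostasin, a surface protease held by HAI-2 and an activator of the epithelial sodium channel. It rose to 106, 116, 119 and 114 TPM in AVP-flox;Cre 1 to 4, against 61.1, 73.6, 68.8 and 67.9 TPM in AVP-flox 1 to 4 (log2 fold change 0.74, SE 0.07, adjusted p = 0.000146). St14 encodes matriptase, the main partner of HAI-1. It fell to 206 ± 10 TPM with Cre, against 252 ± 16 TPM without Cre (SD, n = 4 each, log2 fold change -0.28, SE 0.07, adjusted p = 0.0118). That call ended when AVP-flox 2, AVP-flox;Cre 2 and AVP-flox;Cre 4 were left out (-0.28, adjusted p = 0.067, range over 20 alternatives 0.00591 to 0.067). Hpn, the gene of the membrane protease hepsin, rose by 0.48 (SE 0.13, adjusted p = 0.0186). This call also ended without those 3 libraries (0.29, adjusted p = 0.159) and with no filter on low values (adjusted p = 0.0583, range 0.0117 to 0.159).

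Prss23 rose to 174 ± 8 TPM with Cre, against 75.3 ± 12.9 TPM without Cre (SD, n = 4 each, adjusted p = 8.40e-05). C1s1, a protease of the first complement component, rose to 73.9 ± 4.2 TPM with Cre, against 21.9 ± 6.2 TPM without Cre (SD, n = 4 each, adjusted p = 0.000112). Habp2, a plasma protease that binds hyaluronan, rose by 1.31 (adjusted p = 0.000187). Tmprss2, chosen after its values were seen as the most abundant transmembrane protease of the list, rose by 0.52 (adjusted p = 9.00e-04). The sum of Spint1 and Spint2 was 1642 to 2025 TPM with Cre and 1561 to 1880 TPM without Cre, while St14, Prss8 and Hpn together reached 403 to 460 TPM with Cre and 376 to 423 TPM without Cre. The Kunitz inhibitor transcripts were thus 3.92 to 4.51 times the sum of these 3 proteases with Cre and 3.92 to 4.67 times without Cre, with ranges that overlapped. That sum joins St14, which fell, with Prss8 and Hpn, which rose. It leaves out Tmprss2, at 591 to 683 TPM with Cre and 405 to 468 TPM without Cre. The ratio therefore describes these 3 genes only and not the surface proteases as a whole.

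Plat, the gene of tissue plasminogen activator and a protease that Serpine2 inhibits, was the other serine protease gene that fell. Libraries AVP-flox;Cre 1 to 4 had 591, 644, 570 and 694 TPM, and AVP-flox 1 to 4 had 1960, 1564, 1462 and 1123 TPM (log2 fold change -1.26, SE 0.15, adjusted p = 0.000286). Endothelial cells are a known source of Plat, and 9 endothelial markers summed to 2132 to 2224 TPM with Cre and 2540 to 2618 TPM without Cre. Their directions were mixed, since Emcn (362 TPM with Cre and 705 TPM without Cre on average) and Pecam1 passed as lower, Kdr, Flt1 and Tek passed as higher and 4 did not pass. Their part in the Plat and Serpine2 levels was not tested. Plau, the gene of urokinase, was at 6.58 to 7.96 TPM with Cre and 6.41 to 13.7 TPM without Cre and did not pass (-0.48, adjusted p = 0.109), and Klk1, the gene of tissue kallikrein, was at 5.79 to 10.6 TPM with Cre and 3.72 to 25.2 TPM without Cre and did not pass (-0.91, adjusted p = 0.191). Both were lowest in AVP-flox 2, and without that library both passed as lower with Cre (Plau -0.70, adjusted p = 0.00424, range 0.00424 to 0.309, and Klk1 -1.48, adjusted p = 0.00149, range 0.00149 to 0.46).

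**Figure D4:**
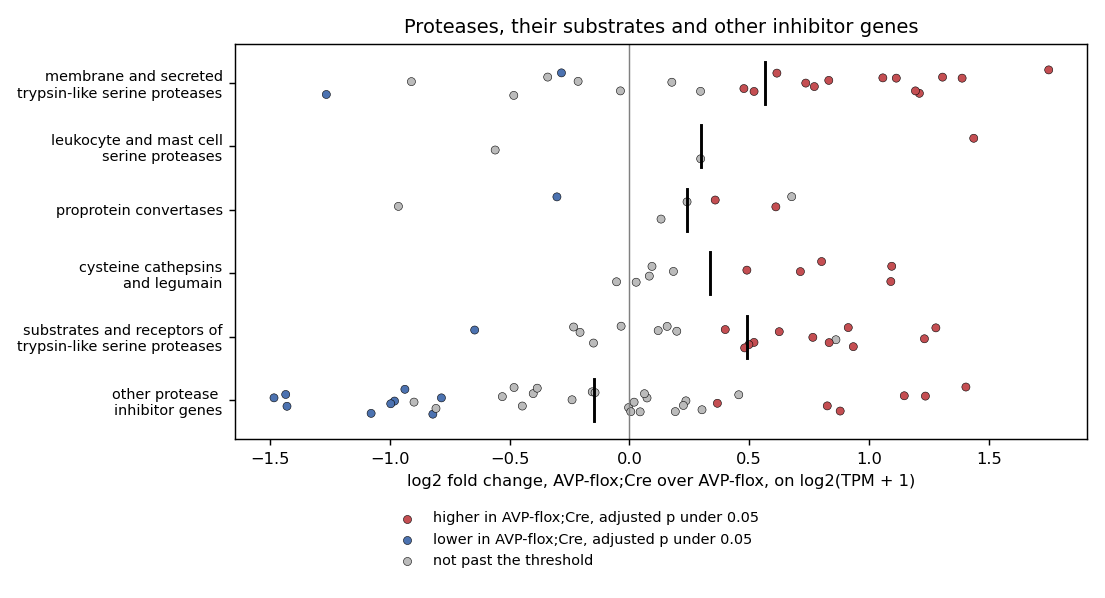
Log2 fold change of each tested protease, substrate or further inhibitor gene, AVP-flox;Cre over AVP-flox, 1 point per gene, with red for higher and blue for lower at an adjusted p under 0.05, grey for genes not past it, and a bar at the list median. Medians run from 0.57 for the trypsin-like serine proteases to -0.15 for the other inhibitor genes, and 13 serine protease and 11 substrate genes rose.

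Cysteine cathepsins are the proteases that cystatin C inhibits. Of 19 genes of this list, 10 were tested. Of these 5 rose, none fell and 5 did not pass, and the median was 0.34. Ctsh, the gene of the lysosomal aminopeptidase cathepsin H, rose to 1213, 1306, 1089 and 1051 TPM in AVP-flox;Cre 1 to 4, against 652, 763, 756 and 666 TPM in AVP-flox 1 to 4 (log2 fold change 0.71, SE 0.09, adjusted p = 0.000386). Ctso rose by 1.09 (adjusted p = 5.66e-05) and Ctsl, the gene of cathepsin L, by 0.49 (adjusted p = 0.00841). Ctss and Ctsk, which are abundant in macrophages and in matrix-degrading cells, rose by 0.80 (adjusted p = 0.00574) and 1.09 (adjusted p = 0.0177), and both calls ended when AVP-flox 2, AVP-flox;Cre 2 and AVP-flox;Cre 4 were left out (adjusted p = 0.104 for Ctss and 0.12 for Ctsk, with ranges of 0.00295 to 0.104 and 0.0132 to 0.12), that of Ctsk also with no filter on low values (adjusted p = 0.0511). Ctsb, the gene of cathepsin B, was at 586 ± 28 TPM with Cre and 554 ± 40 TPM without Cre (SD, n = 4 each) and did not pass (adjusted p = 0.416).

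The proteases named above for Slpi, neutrophil elastase and cathepsin G, were scarce at the RNA level. Elane was at 0 to 0.12 TPM with Cre and 0.02 to 0.19 TPM without Cre. Ctsg was at 0 to 0.42 TPM with Cre and 0 to 0.05 TPM without Cre. Of the wider list of 18 leukocyte and mast cell serine proteases, 3 were tested, with neither of these among them. The list also holds proteases not named here as Slpi targets, Prtn3 among them. Prtn3, the gene of proteinase 3, rose to 3.46 to 6.27 TPM with Cre, against 0.76 to 1.73 TPM without Cre (log2 fold change 1.44, SE 0.23, adjusted p = 0.00165), and 2 did not pass. Of 9 proprotein convertases, the intracellular proteases that cut precursor proteins, 7 were tested, Mbtps1 and Pcsk4 rose, Furin fell by 0.30 (adjusted p = 0.036), and 4 did not pass. The call of Furin ended in 11 of 20 alternatives (adjusted p from 0.0258 to 0.226), that of Pcsk4 in 6 of 19, and that of Mbtps1 in 1 of 20.

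Among 22 substrates and receptors of trypsin-like serine proteases, 20 were tested. Of these 11 rose and 1 fell, while 8 did not pass, and the median was 0.49. Epcam, an adhesion protein that matriptase cuts, rose to 1033 to 1076 TPM with Cre, against 696 to 765 TPM without Cre (log2 fold change 0.52, SE 0.06, adjusted p = 0.000186). F3, the gene of tissue factor, rose by 0.91 (adjusted p = 0.000253). Of the sodium channel subunits, alpha and gamma are known to be cut by proteases. The alpha subunit gene Scnn1a was at 11.1 to 18.7 TPM with Cre and 3.08 to 11.5 TPM without Cre and did not pass (0.86, SE 0.32, adjusted p = 0.0715). It passed with a replicate block (adjusted p = 0.025) and without AVP-flox 1 (adjusted p = 0.0498, range 0.025 to 0.206). The beta and gamma subunit genes were at 59.5 to 66.5 TPM (Scnn1b) and 50.6 to 71.5 TPM (Scnn1g) with Cre, against 19.9 to 29.4 TPM and 18.8 to 32.1 TPM without Cre, and both rose (adjusted p = 8.10e-05 for Scnn1b and 0.000527 for Scnn1g). F2rl1, the gene of the protease-activated receptor PAR2, was at 24.8 to 51.2 TPM with Cre and 36.7 to 45.5 TPM without Cre and did not pass (-0.03, adjusted p = 0.919).

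Among the other protease inhibitor genes of the same families, the direction was mixed. Of 142 genes in the table, 36 were tested. Of these 6 rose and 9 fell, while 21 did not pass, and the median was -0.15. Tfpi, the inhibitor of the tissue factor pathway, rose to 23.3 ± 1.5 TPM with Cre, against 12.4 ± 2.8 TPM without Cre (SD, n = 4 each, log2 fold change 0.88, adjusted p = 0.00224). Among relatives of Spink8, Spink12 rose to 3.45 to 5.59 TPM with Cre, against 0.60 to 1.73 TPM without Cre (adjusted p = 0.00327), and Spink10 fell to 0.21 to 0.55 TPM with Cre, against 1.92 to 3.19 TPM without Cre (adjusted p = 0.0014). Wfdc1, a WAP gene, rose by 1.15 (adjusted p = 0.00583), and Serpini1, which encodes neuroserpin, an inhibitor of tissue plasminogen activator, fell by 1.48 (adjusted p = 0.00405). Wfdc1 was fitted in only 14 of 20 alternatives, and its estimate ran from 0.37 to 2.52 over them. The Spink10 estimate ran from -2.69 to -0.51. With Cre, Spink10 stayed under 1 TPM, so it reached the mean of 1 TPM only through the libraries without Cre. The size of both differences is uncertain. The calls of Tfpi (0.79, adjusted p = 0.0638) and Serpini1 (-1.44, adjusted p = 0.0601) ended when AVP-flox 2, AVP-flox;Cre 2 and AVP-flox;Cre 4 were left out. The most abundant genes of the list, named after their values were seen, were App, whose Kunitz-containing isoforms inhibit serine proteases, at 890 ± 54 TPM with Cre and 862 ± 24 TPM without Cre, and Serping1, the inhibitor of the first complement component, at 801 ± 61 TPM with Cre and 807 ± 113 TPM without Cre (SD, n = 4 each). Neither passed (adjusted p = 0.638 for App and 0.984 for Serping1).

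The GC content of the first 300 bases of an annotated transcript ran from 44.0% (Serpine2) to 70.7% (Spint1) over the 10 members. For each member, the median log2 fold change of the other tested genes within 5 percentage points of its GC content lay between -0.062 and 0.065. It had the same sign as the member's own difference for some members, Spink8 and Slpi among them, and the opposite sign for others, Spint1 and Serpine2 among them. The part of GC content in the differences was not tested.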

How the data were processed

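The authors deposited TPM values per Ensembl mouse gene, 1 column for each of 8 libraries, made with STAR and RSEM per the submitters' processing notes. Neither build nor annotation is given in the sources used here. Per the labels' protocols, cDNA came from 1 ng of total RNA (SMART-Seq HT, 11 PCR cycles) and Nextera XT libraries were read as paired-end 50 bp. TPM keeps no read counts, so depth and counting intervals are unknown. Columns named KO were read as AVP-flox;Cre and those named WT as AVP-flox. Identifiers sharing a symbol (312 symbols) were summed, and 21883 identifiers without a symbol kept their own row. With R 4.3.3 and limma 3.58.1, log2(TPM + 1) was fitted with a mean-variance trend over 19043 genes whose mean reached 1 TPM. P-values are two-sided and Benjamini-Hochberg adjusted over that whole set. Fold changes on this scale understate low genes. The fit was tested on simulated data.

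The members and all lists were chosen with earlier results of these data known. The text names the members, their paralogs, a listed set of proteases and substrates, up to 5 called genes per list with the smallest adjusted p, the 3 genes nearest in profile (given for Spink8 and Slpi) and tested neighbours, up to the second gene on either side. Alternatives were pseudocounts, filters, scalings, moderation, a replicate block, sex pattern, unsummed identifiers and libraries left out. Sequences were read from GENCODE M21 and the RefSeq promoter table. Some listed genes are counted but not reported here by name.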

Additional observations from a re-analysis of the deposited data

Results flagged for a closer look

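In 114 groups of 4 libraries, made of the members and the other named genes in each genotype, Dixon's test at a critical value of 0.829 set a library apart in 2, where chance gives about 1 in 20. Kng2, a kininogen gene with cystatin domains, had 30.87 TPM in AVP-flox 2, where 182 to 211 TPM were found in the other AVP-flox libraries. App had 825.77 TPM in AVP-flox 3, where 871 to 878 TPM were found in the other AVP-flox libraries. None of the 10 members had a library apart by this test.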

How the results depend on the processing

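Over up to 20 alternatives, the log2 differences of Spint1 (0.42 to 0.48), Spink8 (3.64 to 4.10), Wfdc2 (0.21 to 0.49), Cst3 (0.36 to 0.45) and Serpine2 (-0.76 to -0.55) moved by less than the spread between libraries. Those of the low genes moved with the pseudocount by construction. With 0.1 and 5 they were 2.52 and 0.32 for Ambp, 5.05 and 2.34 for Slpi, and 2.82 and 0.37 for Serpina3g. Over all genes, 2491 were higher and 2713 lower in the main fit. These counts were 1378 and 1182 when libraries AVP-flox 2, AVP-flox;Cre 2 and AVP-flox;Cre 4 were left out together, which leaves fewer libraries to compare. With no filter on low values, where more genes are tested, 1643 were lower. Without those 3 libraries, calls were 3 higher cathepsins, 8 higher serine proteases, 2 higher and 3 lower among other inhibitors, and 5 higher substrates. With a filter at 5 TPM they were 0 higher leukocyte proteases, since none is left to test (0 at an unadjusted limma p under 0.05), 2 higher and 1 lower other inhibitors, and 1 higher and 2 lower convertases. With no filter they were 0 higher and 0 lower convertases (4 and 2 at an unadjusted limma p under 0.05) and 7 higher substrates, and without the limma trend 0 lower convertases (2 unadjusted). Leaving out 1 library gave 2 to 4 lower serine proteases, 1 to 3 higher and 0 to 1 lower convertases, and 1 to 2 lower substrates. Same-numbered libraries correlated by 0.001 to 0.095 in their deviations, 2 of 8 libraries correlated best with their own number, and a replicate block gave 5 lower other inhibitors and 1 higher and 0 lower convertases (2 lower unadjusted). Wfdc15b, at 0.07, reversed without AVP-flox 2, with a range of -0.37 to 0.30 over single libraries left out. The cause was not tested. Of 47 named genes outside the members, 29 kept their side of the threshold in all alternatives run. Depth limits the genes near 1 TPM.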

Other observations

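Several inhibitor genes outside the 10 members, chosen after their values were seen, varied within AVP-flox together with summed markers of other tubule segments. Wfdc15b, a WAP gene, had 728, 787, 662 and 691 TPM in libraries AVP-flox;Cre 1 to 4 and 840, 270, 855 and 1099 TPM in AVP-flox 1 to 4. AVP-flox 2 was the low library, as it was for Kng2, at 30.9 TPM, and for the sum of 8 markers of thick limb and distal tubule, at 964 TPM against 2616 to 2870 TPM in the other AVP-flox libraries and 1398 to 1691 TPM with Cre. Neither gene passed over all libraries (adjusted p = 0.905 for Wfdc15b and 0.249 for Kng2). Without AVP-flox 2 both passed as lower with Cre, at -0.37 (adjusted p = 0.0338, range 0.0338 to 0.992) and -1.55 (adjusted p = 0.00105, range 0.00105 to 0.533). The thick limb and distal tubule markers did not all follow their sum. Umod (188 TPM in AVP-flox 2 and 1139 to 1404 TPM in the other AVP-flox libraries), Slc12a1 and Egf were low in AVP-flox 2. Cldn16 was highest there among the AVP-flox libraries (52.8 TPM). Cldn10 and Cldn16 passed as higher with Cre and none of the list passed as lower. The part of those markers in the Wfdc15b and Kng2 levels was not tested.

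Spink1, a Kazal gene like Spink8, had 4.11, 7.12, 15.3 and 4.55 TPM in libraries AVP-flox;Cre 1 to 4 and 19.9, 3.29, 19.6 and 2.94 TPM in AVP-flox 1 to 4. The proximal tubule markers summed to 193, 272, 388 and 156 TPM in the same AVP-flox;Cre libraries and to 973, 117, 617 and 80.0 TPM in the same AVP-flox libraries. The libraries with more of these markers had more Spink1 in each group, except that AVP-flox;Cre 4 had slightly more than AVP-flox;Cre 1. The part of these markers in the Spink1 level was not tested.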
